A study of Mus musculus with 3 samples.

Results

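The metabotropic glutamate (mGlu) receptors are G protein-coupled receptors that respond to glutamate on a slower time scale than the ionotropic receptors. They fall into 3 groups. Group I receptors couple to Gq and phospholipase C and lie mainly on postsynaptic membranes, while group II and group III receptors couple to Gi and Go, lower cyclic AMP and lie largely on presynaptic terminals, where they restrain transmitter release. The genes described here are Grm5 (group I), Grm2 and Grm3 (group II), and Grm4, Grm6, Grm7 and Grm8 (group III). Group I is represented by Grm5 alone, so values given for it are those of 1 gene and not of the whole group. These 7 genes were taken by name from 21631 protein-coding genes, by a rule that uses no measured value but was written with earlier results of these data known. Each was described by the accessible regions (peaks) that overlapped its gene span plus 5 kb on each side, called its window.

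The peaks come from 3 single-cell combinatorial indexed ATAC-seq libraries, in which a barcoded transposase marks open chromatin, made from whole brain of C57BL6 mice. Nuclei were indexed in well plates and again by PCR in a nanowell chip. The version names are sciATACv1 (v1 below), sciATACv2 (v2) and sciATACv3 (v3), and triplets of values are given in that order. What sets the versions apart, and the sex, age, treatment and number of the animals, is not given in the sources used here. With 1 library per version there is no spread between replicates, so no test between versions was run and intervals cover counting error only. The lists held 622754, 850991 and 512023 peaks, with no score or read count, so the sequencing depth behind them is unknown. A peak pools all nuclei of a library, so how many nuclei carried a region and how open it was in each cannot be told apart. As a check of the tissue, the ends of the gene spans were examined for a peak at most 1 kb away. All 6 neuron, 6 astrocyte, 4 oligodendrocyte and 3 microglia marker genes carried such a peak in each library, beside 81.0%, 84.8% and 80.6% of all protein-coding genes. Of 5 liver and 5 retina genes, 4 of each had one as well, so such a peak does not mark the tissue. The window of Crx, a photoreceptor transcription factor gene, held 0 peaks in each library.

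The start of transcription was open in these libraries at every receptor gene whose start could be placed. RefSeq promoter sequences (build GRCm38.p6, the same assembly as mm10) were at hand for Grm2, Grm3, Grm6, Grm7 and Grm8, and a peak lay over an annotated start of these 5 of 5 genes in v1, v2 and v3. Among 17274 protein-coding genes with such a sequence, 70.9%, 76.2% and 71.5% had a peak over a start in the single libraries and 68.3% in all 3. The 250 bases before each start follow, 5′ to 3′ in the direction of transcription, since they are the promoter stretches over which the peaks lay. Of the overlapping starts of Grm7 the first is shown, and of Grm8 all 3 starts are shown because they differed in accessibility. Capitals mark the GC box GGGCGG, searched on both strands.

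Grm2 (chr9:106656110-106656359, minus strand): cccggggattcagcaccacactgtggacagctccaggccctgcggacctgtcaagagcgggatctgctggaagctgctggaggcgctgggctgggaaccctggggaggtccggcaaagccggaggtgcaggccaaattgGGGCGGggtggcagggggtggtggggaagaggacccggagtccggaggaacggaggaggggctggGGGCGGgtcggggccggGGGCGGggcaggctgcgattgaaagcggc

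Grm3 (chr5:9725353-9725602, minus strand): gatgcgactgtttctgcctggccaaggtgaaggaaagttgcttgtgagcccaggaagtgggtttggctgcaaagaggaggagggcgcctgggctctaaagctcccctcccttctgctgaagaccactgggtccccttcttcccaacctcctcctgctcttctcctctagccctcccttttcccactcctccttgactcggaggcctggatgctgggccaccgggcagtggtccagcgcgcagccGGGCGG

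Grm6 (chr11:50850435-50850684, plus strand): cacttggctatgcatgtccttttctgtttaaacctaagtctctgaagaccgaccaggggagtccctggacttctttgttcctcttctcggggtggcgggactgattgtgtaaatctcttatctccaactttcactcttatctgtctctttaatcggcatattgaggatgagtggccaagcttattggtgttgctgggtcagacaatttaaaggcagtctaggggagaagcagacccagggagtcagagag

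Grm7 (chr6:110645262-110645511, plus strand): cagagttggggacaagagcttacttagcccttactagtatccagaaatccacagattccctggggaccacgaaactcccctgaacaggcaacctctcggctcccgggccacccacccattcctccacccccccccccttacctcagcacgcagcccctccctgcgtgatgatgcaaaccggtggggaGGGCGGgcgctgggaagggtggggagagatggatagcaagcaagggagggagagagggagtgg

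Grm8, the first start (chr6:28135147-28135396, minus strand): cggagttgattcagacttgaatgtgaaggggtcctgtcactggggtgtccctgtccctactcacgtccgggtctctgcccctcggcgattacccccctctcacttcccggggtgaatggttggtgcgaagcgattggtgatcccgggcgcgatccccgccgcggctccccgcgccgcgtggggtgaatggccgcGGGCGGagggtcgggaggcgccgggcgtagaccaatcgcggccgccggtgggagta

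Grm8, the second start (chr6:28134422-28134671, minus strand): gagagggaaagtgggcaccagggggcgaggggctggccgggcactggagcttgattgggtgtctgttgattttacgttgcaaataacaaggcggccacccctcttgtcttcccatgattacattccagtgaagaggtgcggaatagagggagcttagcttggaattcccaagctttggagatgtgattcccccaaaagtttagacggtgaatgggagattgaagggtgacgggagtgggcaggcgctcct

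Grm8, the third start (chr6:28126427-28126676, minus strand): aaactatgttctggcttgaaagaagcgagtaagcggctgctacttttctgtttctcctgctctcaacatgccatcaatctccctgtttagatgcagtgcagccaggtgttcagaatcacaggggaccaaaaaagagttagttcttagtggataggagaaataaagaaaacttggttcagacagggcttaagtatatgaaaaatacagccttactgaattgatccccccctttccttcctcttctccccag

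The promoters were unlike in base composition. The Grm2 stretch held 3 GC boxes and 16 CpG dinucleotides at 71.2% GC, and the first Grm8 stretch held 1 GC box and 29 CpG, more than 91.1% of the 21045 starts of protein-coding genes. Grm3 and the first Grm7 start each held 1 GC box and 8 CpG, near the median of 10 CpG. The Grm6 stretch had no GC box, 4 CpG and 47.6% GC, against a median of 55.6% GC. A GC box in either direction was found in 43.1% of the starts, and TATAAA, found on either strand in 11.7%, was absent from all of the stretches shown. TAATCC, the core bound by CRX and OTX factors of retinal cells, was not in the Grm6 stretch on either strand and was found in 5.77% of starts. These are matches of letters and not sites.

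Peaks over the starts differed in width between genes and libraries. Over the Grm2 start, which belongs to an autoreceptor gene of many glutamatergic terminals, peaks of 2818, 2850 and 2405 bp lay in v1, v2 and v3. Over the start of Grm3, whose receptor is found on neurons and astrocytes, the peaks spanned 2187, 2043 and 2867 bp, and over that of Grm7, a presynaptic receptor with low affinity for glutamate, 1531, 1896 and 2291 bp. In all of these the whole 250 bases upstream lay under the peak in each library.

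Grm6 encodes the receptor of retinal ON bipolar cells, which depolarise when light lowers glutamate release. Its start lay under peaks of 947, 1426 and 2229 bp. The peaks of v1 and v2 reached only 44 and 35 bases upstream of the start, so that most of the 250 bases shown were outside them, while the v3 peak covered all 250. The Grm6 start is thus the one among the 5 genes where the libraries placed the upstream border differently with respect to the promoter stretch.

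At Grm8, another presynaptic receptor gene, the first and the second start lie 725 bases apart. In v1 they lay under separate peaks of 1323 and 542 bp and in v2 under peaks of 1318 and 1634 bp, while in v3 a single peak of 3238 bp covered both. The third start, further into the gene with 2 CpG in its stretch, had no peak over it in any of the 3 libraries. The nearest peaks of v1, v2 and v3 lay 1191, 324 and 290 bp away. Among starts with at most 4 CpG, 29.6%, 39.7% and 30.5% had a peak, against 98.0%, 99.0% and 98.4% of those with 15 or more.

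**Figure D1:**
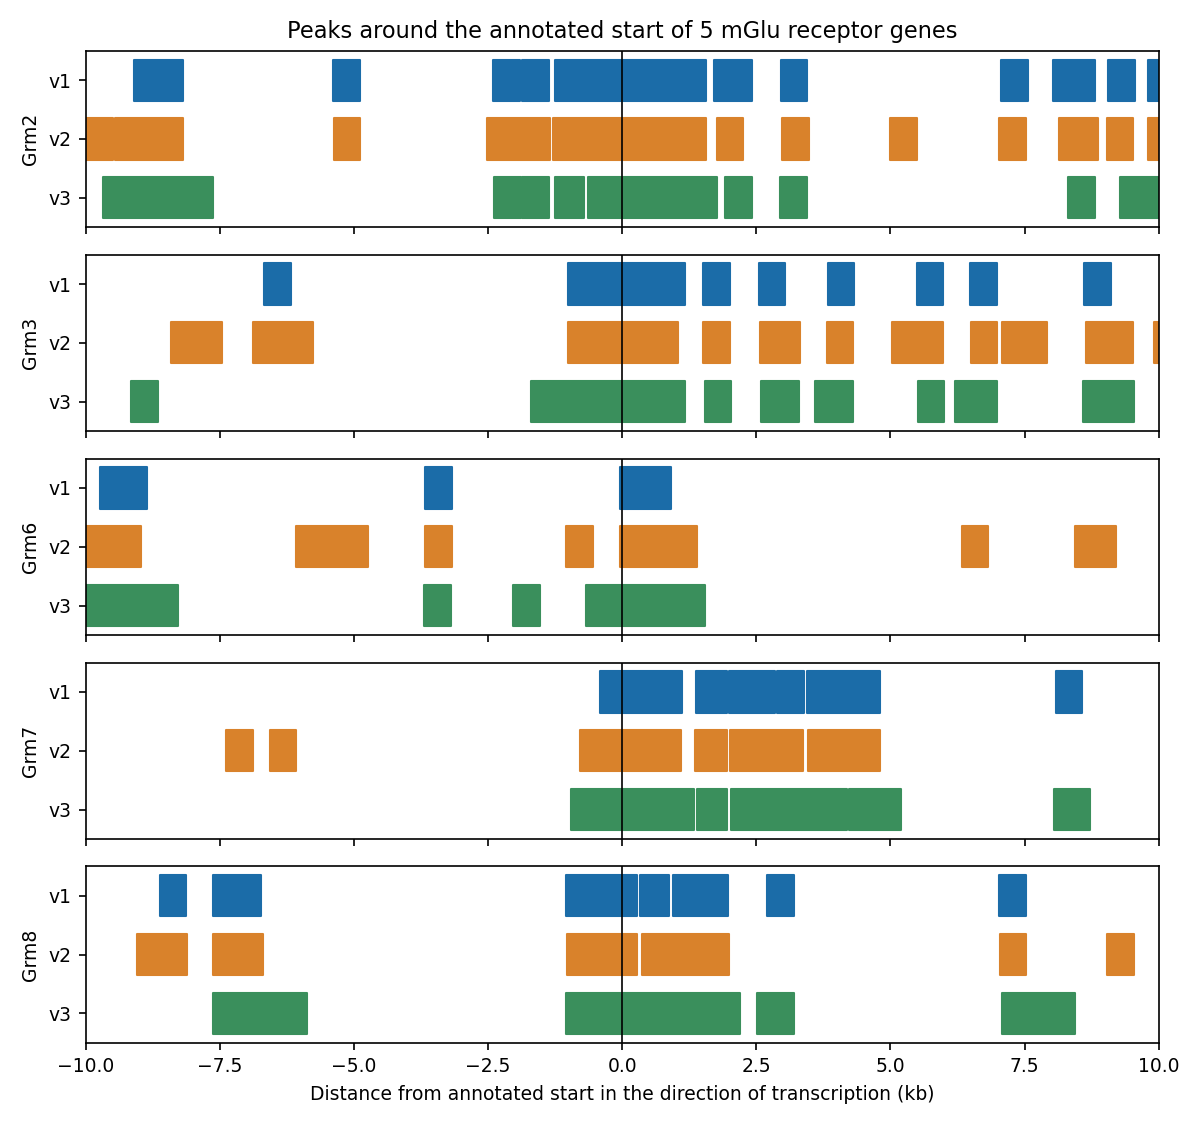
Peaks within 10 kb of the first annotated start of 5 mGlu receptor genes, drawn to scale by distance from the start in the direction of transcription (kb), 1 row per library. A peak lies over the start in each row, the v3 peak at Grm8 covers what is split in v1 and v2, and Grm7 carries peaks over about the first 5 kb of the gene in each library.

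Promoter sequences of Grm5 and Grm4 were not used here, so their starts were not placed and both ends of the gene span were examined. Grm5 encodes a group I receptor found on forebrain neurons and on astrocytes. The lower end of its span (chromosome 7, 87583981) lay under peaks of 1736, 1736 and 2272 bp, and the upper end (88135063) had no peak over it, with the nearest 498, 583 and 573 bp away. At Grm4, a presynaptic receptor gene known from cerebellar granule cells, both ends of the span (chromosome 17, 27422387 and 27513826) lay under peaks in each library. Those at the upper end spanned 1415, 3529 and 2338 bp. At most 1 kb from either end, 7 of 7 receptor genes had a peak in each library, beside 81.0%, 84.8% and 80.6% of all protein-coding genes in the single libraries and 77.8% in all 3.

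The receptor genes differ in length by almost 2 orders of magnitude, and their peak counts ranged from 2 to 454 in v1, from 8 to 574 in v2 and from 3 to 467 in v3. Grm7 (chromosome 6, 110645349 to 111567230) held 454, 574 and 467 peaks. Grm8 (chromosome 6, 27275121 to 28135146) held 301, 424 and 219, and Grm5 318, 326 and 280. These long genes lay above percentile 99 of all protein-coding genes by number of peaks in each library, a rank that does not allow for length. Among genes with windows of like length, matched as for Grm2 below, Grm8 was under the medians of 350, 431 and 270.5 peaks. Grm7 stood above the upper quartiles of 451, 544 and 377.5. Grm5 stood above the upper quartiles of 273.25 in v1 and 232 in v3. In v2 it lay between the median of 274 and the upper quartile of 331.5.

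The other genes held fewer. Grm3 (chromosome 5, 9485236 to 9725352) held 141, 152 and 108 peaks, and Grm4 held 53, 60 and 36. The short genes Grm2 (chromosome 9, 106644534 to 106656109, a span of 11.6 kb) and Grm6 (chromosome 11, 50850369 to 50866208, 15.8 kb) stood far apart, with 13, 16 and 11 peaks at Grm2 and 2, 8 and 3 at Grm6. Protein-coding genes with windows 0.75 to 1.33 times that of Grm2 had medians of 6, 9 and 5 peaks, and those like Grm6 had 8, 11 and 7. Grm2 thus stood above the upper quartile of genes of its length (9, 11 and 8 peaks) in each library, and Grm6 was below the lower quartile (4, 7 and 4) in v1 and v3 and between the lower quartile and the median in v2.

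Per length, Grm2 had the densest peaks in all 3 libraries, at 60.3 (exact Poisson 95% interval 32.1 to 103), 74.2 (42.4 to 120) and 51.0 (25.5 to 91.2) peaks per 100 kb of window. Its intervals are wide and overlapped those of Grm3, Grm4, Grm5, Grm7 and Grm8 in each library, and that of Grm6 in v2 and v3. The level of Grm5 was 56.7 (50.6 to 63.3), 58.1 (52.0 to 64.8) and 49.9 (44.2 to 56.1) peaks per 100 kb. Among all genes these densities of Grm5 stood at percentiles 94.2, 81.9 and 93.4, so the gene was further from the median in v1 and v3 than in v2.

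In group II, Grm3 had 56.4 (47.5 to 66.5), 60.8 (51.5 to 71.2) and 43.2 (35.4 to 52.1) peaks per 100 kb. In group III, Grm7 had 48.7 (44.3 to 53.4), 61.6 (56.7 to 66.8) and 50.1 (45.7 to 54.9), and Grm4 had 52.2 (39.1 to 68.3), 59.1 (45.1 to 76.1) and 35.5 (24.9 to 49.1). These levels are all above the median protein-coding gene, at 29.7, 42.6 and 26.6 peaks per 100 kb.

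Grm8 and Grm6 had the lowest levels of the receptor genes. Grm8 had 34.6 (30.8 to 38.7), 48.7 (44.2 to 53.6) and 25.2 (21.9 to 28.7) peaks per 100 kb, at percentiles 58.7, 62.0 and 47.0 of all genes. Grm6 had 7.74 (0.937 to 28.0), 31.0 (13.4 to 61.0) and 11.6 (2.39 to 33.9), at percentiles 16.5, 33.0 and 23.5. In v1 the interval of Grm8 lay below that of Grm7, the next gene above it, and above that of Grm6. In v2 and v3 the intervals of Grm8 overlapped those of its neighbours in the order, Grm5 and Grm6 in v2 and Grm4 and Grm6 in v3. Grm7 and Grm8, the long genes of group III, did not overlap in any library.

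**Figure D2:**
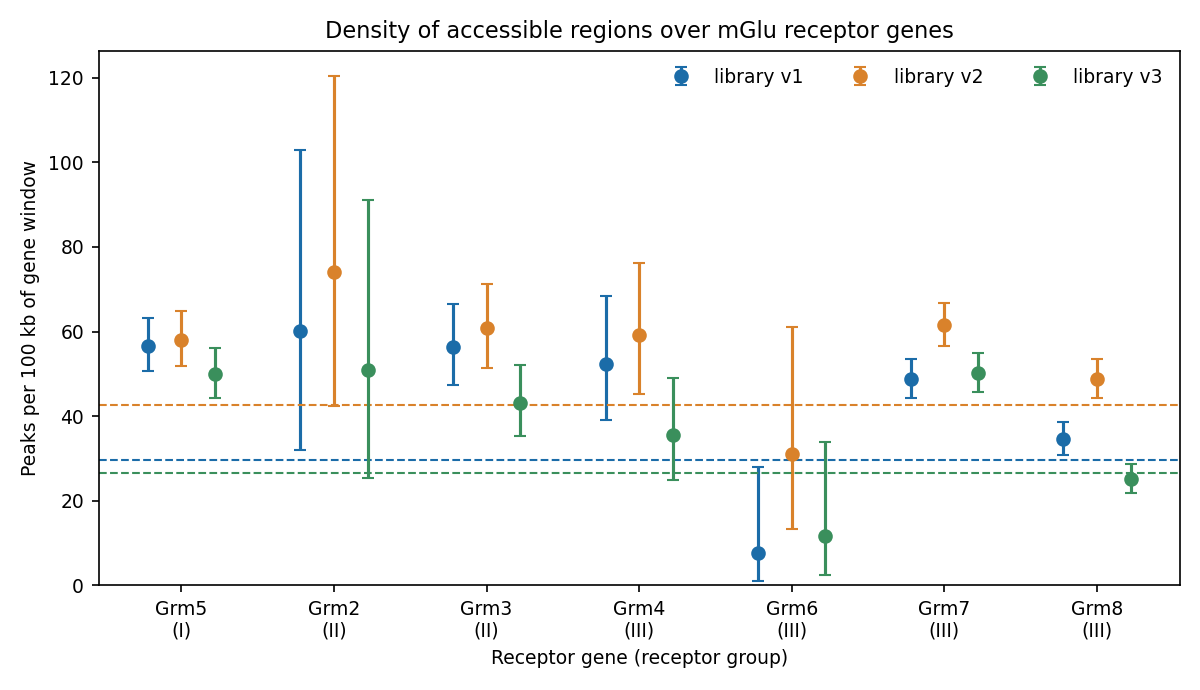
Peaks per 100 kb of gene window for each receptor gene (group in brackets) and library, as points with exact Poisson 95% intervals, and the median of 21631 protein-coding genes as a dashed line in the colour of its library. Grm2, Grm3, Grm4, Grm5 and Grm7 lie above the median of their library, Grm8 is close to it and Grm6 below it.

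Covered length was compared as well, since v3 peaks are wider (median 726 bp against 500 bp in v1 and v2). Peaks covered 40.3%, 47.7% and 51.5% of the Grm5 window and 34.7%, 50.3% and 48.1% of the Grm7 window. At Grm8 they covered 24.7%, 36.9% and 21.2%, and at Grm6 5.60%, 20% and 12.5%. The median gene had 23.5%, 35.8% and 27.8% covered. In v3 the Grm8 window was thus below the median gene, and the Grm5 window had the highest coverage of the receptor genes.

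Peaks were not spread evenly along every long gene in every library. Each gene span was divided at its midpoint into a proximal segment, which holds the start of transcription, and a distal one, and peaks were assigned by their own midpoints. At Grm8 the proximal segment held 172, 225 and 136 peaks and the distal one 128, 197 and 83. The proximal segment thus held 57.3% of the peaks (exact Clopper-Pearson 95% interval 51.5 to 63.0), 53.3% (48.4 to 58.2) and 62.1% (55.3 to 68.6). The longest stretch of the Grm8 span without a peak measured 20.9, 10.5 and 24.5 kb, and that of Grm7 9.60, 6.92 and 14.7 kb. At Grm3 the proximal segment held 49.6% (40.9 to 58.4), 50.7% (42.3 to 59.0) and 49.5% (39.6 to 59.5). These intervals include an even split and overlap those of Grm8 in each library.

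At Grm7 the proximal segment held 55.4% (50.7 to 60.1), 51.5% (47.3 to 55.7) and 53.8% (49.1 to 58.4). Grm5, for which the direction of transcription was not placed, held 55.4% (49.7 to 60.9), 53.5% (48.0 to 59.1) and 54.1% (48.1 to 60.1) in the segment with the lower coordinates. Of these 4 genes, Grm8 in v1 and v3 and Grm7 in v1 had intervals that left out an even split. At the shorter Grm4, also by coordinate, the lower segment held 23, 30 and 21 peaks and the upper one 27, 28 and 12.

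**Figure D3:**
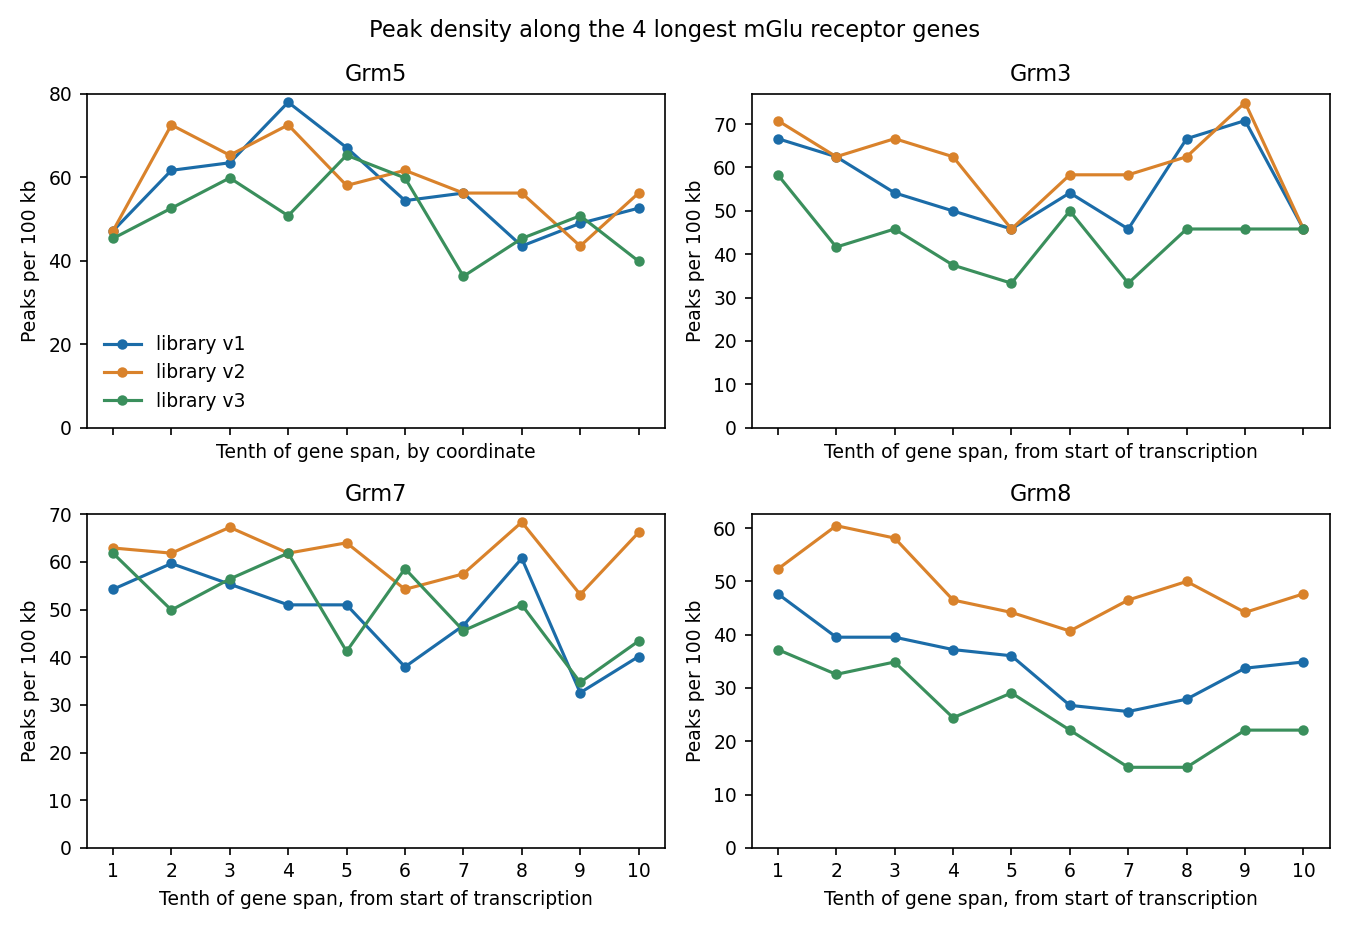
Peaks per 100 kb in each of 10 equal segments of the gene span for the 4 longest receptor genes, 1 line per library. Grm3, Grm7 and Grm8 run from the start of transcription, Grm5 by coordinate. In segments 7 and 8 of Grm8 the v3 library has 13 peaks each, against 22 and 24 in v1 and 40 and 43 in v2. As shares of all peaks of the library, v3 over v2 is 0.540 and 0.502 there, the lowest values among the 10 segments of Grm8.

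Open regions that all 3 libraries found were named by width. When the lists were merged, the widest shared region of Grm5 spanned 6520 bp (chromosome 7, 87741634 to 87748153), inside the gene span and 161 kb from its nearer end. At Grm7 it spanned 4664 bp (chromosome 6, 110922853 to 110927516), 280 kb into the gene, and at Grm3 4777 bp (chromosome 5, 9537785 to 9542561), 185 kb from the start. Exon and intron borders were not used here, so the place of these regions within the gene structure is not given.

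At the short genes and at Grm4 the widest shared region lay at an end of the gene. It spanned 3714 bp at Grm2 (chromosome 9, 106653687 to 106657400) and 2595 bp at Grm6 (chromosome 11, 50849639 to 50852233), both over the annotated start. At Grm4 it spanned 4067 bp over the upper end (chromosome 17, 27510501 to 27514567). At Grm8 it spanned 4407 bp (chromosome 6, 27743673 to 27748079), which was 1 peak in v2, whereas peaks of v1 covered 1422 bp of it and peaks of v3 1386 bp. The second widest Grm8 region (chromosome 6, 27897236 to 27901589) was covered over 3752, 3766 and 4296 bp.

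The second widest shared regions of the other genes were of like size at the long genes. They spanned 4552 bp at Grm5 (chromosome 7, 88081695 to 88086246), 4445 bp at Grm7 (chromosome 6, 111021993 to 111026437), 4263 bp at Grm3 (chromosome 5, 9583096 to 9587358) and 4058 bp at Grm4 (chromosome 17, 27454965 to 27459022), all inside the gene span. At Grm2 the second spanned 2371 bp (chromosome 9, 106644711 to 106647081), inside the span near its lower end. At Grm6 it was a region of 523 bp in the flank (chromosome 11, 50846994 to 50847516), 3.43 kb upstream of the start, and with the start region it made up the 2 regions of this gene that all libraries shared.

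The libraries shared the regions of Grm5 and Grm3 far more often than those of Grm8. Of 281 merged regions of Grm5, 186 had a peak in all 3 libraries (66.2%, exact Clopper-Pearson 95% interval 60.3 to 71.7), and of 124 at Grm3, 83 (66.9%, 57.9 to 75.1). At Grm7 it was 287 of 508 (56.5%, 52.1 to 60.9), and at Grm8 132 of 421 (31.4%, 26.9 to 36.0). Over all protein-coding windows the share was 46.6% of 490738 regions. Grm5 and Grm3 had a higher share than 90.3% and 91.8% of 4218 genes with at least 30 regions, and Grm8 a higher share than 15.3%.

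The remaining genes had fewer regions and wider intervals. Grm4 had 23 of 52 regions in all 3 libraries (44.2%, 30.5 to 58.7), Grm2 7 of 11 (63.6%, 30.8 to 89.1) and Grm6 2 of 8 (25%, 3.19 to 65.1). At genes with windows 0.75 to 1.33 times as long, the median share was 46.3% for Grm5, 47.2% for Grm3, 42.6% for Grm7, 42.9% for Grm8 and 50% for Grm4. Grm5, Grm3 and Grm7 stood above the upper quartile of those genes (56.1%, 57.9% and 53.4%), and Grm8 stood between the lower quartile of 30.4% and the median.

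Of the 421 regions of Grm8, 107 had a peak in v1 and v2 and none in v3 (25.4%, 21.3 to 29.9), against 13.1% of regions over all protein-coding windows. Another 111 had a peak in v2 alone (26.4%, 22.2 to 30.9), against 21.2%. Regions missing from v1 alone made up 7.36% at Grm8 and 7.34% over all windows, and those missing from v2 alone 1.66% and 1.36%, so over all windows too v3 was the library that most often lacked a peak. At Grm5, 16 of 281 regions had a peak in v2 alone (5.69%, 3.29 to 9.08) and 30 in v3 alone (10.7%, 7.32 to 14.9), the latter against 6.96% over all windows. Grm7 had 55 of 508 in v2 alone (10.8%, 8.26 to 13.9) and 43 in v3 alone (8.46%, 6.19 to 11.2). Grm8 had 25 in v3 alone (5.94%, 3.88 to 8.64), an interval that overlaps that of Grm7. By group, the share in all 3 libraries was 66.2% in group I, 66.7% in group II (58.0 to 74.5) and 44.9% in group III (41.8 to 48.1), where Grm7 and Grm8 hold most regions. Regions in all 3 libraries are also wider by construction, with a median of 1320 bp against 500 bp for those of 1 library over the 7 genes.

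**Figure D4:**
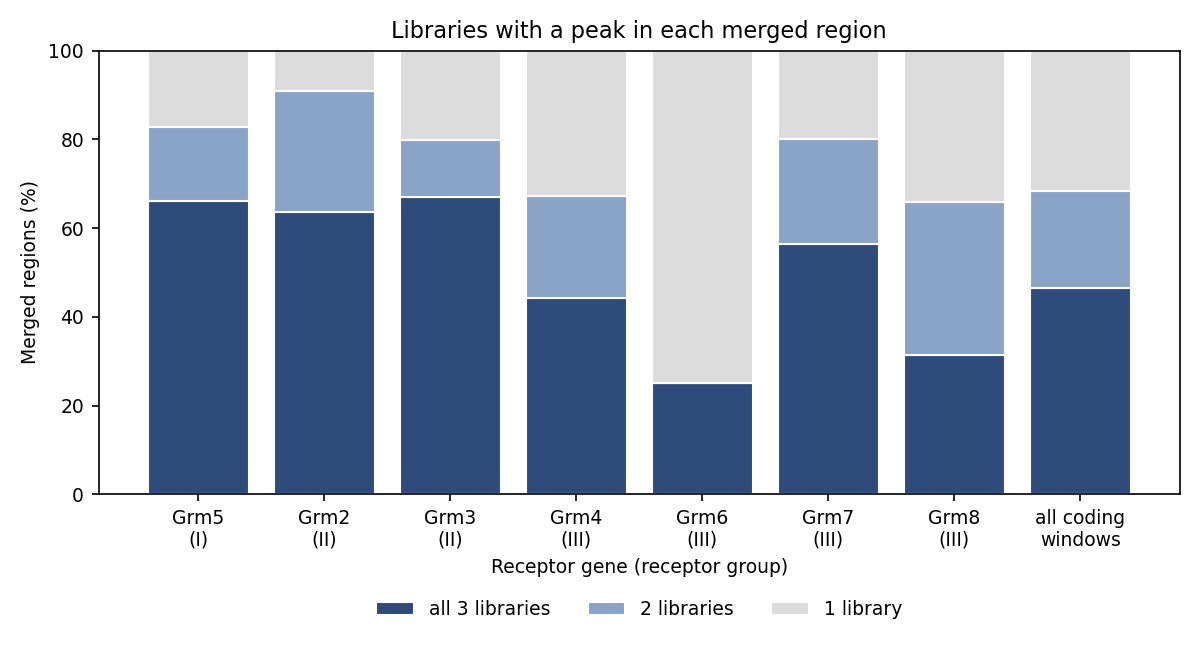
Merged regions of each receptor gene (group in brackets) and of all protein-coding windows, in percent, by the number of libraries with a peak in the region. The dark bars, regions in all 3 libraries, reach 66.2% at Grm5 and 66.9% at Grm3, against 31.4% at Grm8 and 46.6% over all coding windows.

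Between libraries, peaks of a gene were set against all peaks of the library, since v2 lists more of them. The ratio of these shares was called past 1.5-fold when it was above 1.5 or below its inverse, and calls were limited to genes whose 3 counts summed to 30 or more, which Grm6 with 13 did not reach. None of the other 6 receptor genes was past 1.5-fold in any pair of libraries, while 10.1% of 9711 genes were past it in v2 over v1, 16.2% in v3 over v1 and 18.1% in v3 over v2. By direction, 6.87% were higher and 3.26% lower in v2 over v1, 11.3% and 4.94% in v3 over v1, and 11.9% and 6.23% in v3 over v2. Genes near the limit of 30 peaks have wider counting error than the long receptor genes. These percents, and the percentiles of ratios below, thus do not compare genes of like count. The pairs share libraries, so their values stand side by side and do not count as separate evidence.

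Grm5 had a lower share of peaks in v2 than in v1 or v3. Its share ratio was 0.75 in v2 over v1 (exact conditional binomial 95% interval 0.641 to 0.878), 1.07 in v3 over v1 (0.909 to 1.26) and 1.43 in v3 over v2 (1.21 to 1.68). On the log2 scale the first is -0.41, against a median of -0.09 over the 9711 genes, and the last 0.51 against 0.19. Its values lay at percentiles 11.4, 50.5 and 84.4 of those genes, inside their range from the fifth to the 95th percentile.

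In group II, Grm3 had ratios of 0.789 in v2 over v1 (0.623 to 0.999), 0.932 in v3 over v1 (0.718 to 1.21) and 1.18 in v3 over v2 (0.914 to 1.52). Grm2 had 0.901 (0.406 to 2.04), 1.03 (0.417 to 2.49) and 1.14 (0.479 to 2.62), intervals too wide at 11 to 16 peaks to show a difference of 1.5-fold. Grm3 lay at percentiles 16.9, 27.0 and 56.0 of the 9711 genes and Grm2 at 43.4, 43.8 and 49.8, so that in v3 over v2 both were near the median gene. In group III, Grm4 had 0.828 (0.563 to 1.22), 0.826 (0.526 to 1.29) and 0.997 (0.641 to 1.53). At Grm6 the ratios were 2.93 (0.584 to 28.3), 1.82 (0.209 to 21.8) and 0.623 (0.106 to 2.60), on 2, 8 and 3 peaks, and no difference was detectable.

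Grm7 and Grm8 lay on opposite sides of the median gene in the comparisons with v3. The Grm7 share ratio was 0.925 in v2 over v1 (0.817 to 1.05), 1.25 in v3 over v1 (1.10 to 1.43) and 1.35 in v3 over v2 (1.19 to 1.53). The Grm8 ratio was 1.03 (0.887 to 1.20), 0.885 (0.740 to 1.06) and 0.858 (0.726 to 1.01), and all 3 intervals of Grm8 include equal shares. The median gene stood at 1.07 in v3 over v1 and 1.14 in v3 over v2. Grm7 was at percentiles 74.5 and 77.6 and Grm8 at 20.2 and 16.3, neither far out among all genes, which include genes with far fewer peaks. Grm7 held 1.51 times the peaks of Grm8 in v1, 1.35 times in v2 and 2.13 times in v3. That proportion was 1.58 times as high in v3 as in v2 (95% interval 1.28 to 1.94) and 1.41 times as high as in v1 (1.13 to 1.77), while between v2 and v1 its interval of 0.737 to 1.09 held equality. This contrast between the genes does not depend on the library totals, but it was noticed in the data and has no replicate check.

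**Figure D5:**
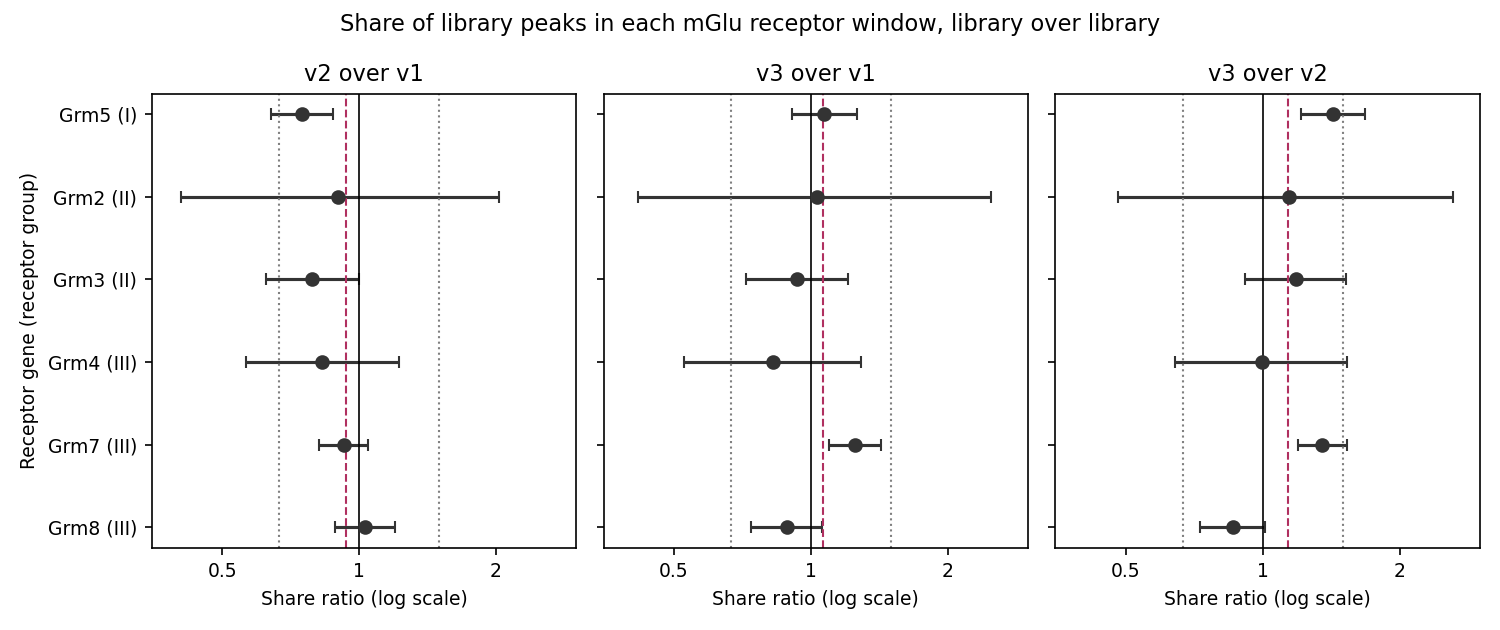
Share ratios of 6 receptor genes in each pair of libraries on a log axis, with exact conditional binomial 95% intervals; dotted lines mark 1.5-fold either way and the dashed line the median of 9711 genes. In v3 over v2, Grm5 at 1.43 and Grm7 at 1.35 lie above 1 and Grm8 at 0.858 below it.

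Within Grm8 the v3 share was lower in the distal segment. There the ratio of v3 over v2 was 0.700 (0.535 to 0.909), against 1.0 (0.806 to 1.25) in the proximal one, and in v3 over v1 it was 0.789 (0.591 to 1.05) against 0.962 (0.762 to 1.21). The intervals of the segments overlap. In v3 over v2, Grm7 had 1.29 (1.08 to 1.55) in its distal and 1.42 (1.19 to 1.68) in its proximal segment, so both were above equal shares. The same held for Grm5 at 1.44 (1.15 to 1.80) in the lower and 1.41 (1.10 to 1.79) in the upper segment.

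By group, group I is represented by Grm5 alone, so its share ratio is that of this gene. Group II had 0.798 in v2 over v1 (0.638 to 1.0), 0.940 in v3 over v1 (0.734 to 1.20) and 1.18 in v3 over v2 (0.923 to 1.5). Group III had 0.963 (0.878 to 1.06), 1.09 (0.983 to 1.20) and 1.13 (1.03 to 1.24). The 7 genes pooled had 0.890 (0.827 to 0.960), 1.07 (0.983 to 1.16) and 1.20 (1.11 to 1.29), close to the 0.937, 1.07 and 1.14 of the median gene. The pooled values rest on Grm7 and Grm8: the ratio of v3 over v2 was 1.11 without Grm7 and 1.32 without Grm8.

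Signalling partners of the receptors had dense peaks too. The list of Gq effectors and postsynaptic partners, which serve group I, had medians of 53.9, 58.0 and 44.5 peaks per 100 kb, and the list of Gi and Go effectors and presynaptic partners 52.2, 56.0 and 43.0. Plcb1, the phospholipase C gene downstream of Gq, held 389, 471 and 370 peaks, and Prkca, which encodes protein kinase C alpha, 219, 246 and 196. Kcnj6, a G protein-gated potassium channel gene, held 131, 147 and 101. These lists and their members were chosen with earlier results of these data known.

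Of the 13 Gq genes with at least 30 peaks, 0 were past 1.5-fold in v2 over v1 and in v3 over v1, beside 10.1% and 16.2% of all genes. In v3 over v2, 1 was higher, beside 11.9% of all genes. This was Shank1, a postsynaptic scaffold gene, with 25 peaks in each library and a ratio of 1.66 (0.916 to 3.02), an interval that includes equal shares. The median log2 share ratio of the list was -0.28, 0.09 and 0.34 in the 3 pairs, against -0.09, 0.09 and 0.19 over all genes.

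Of the 14 Gi and Go genes, 2 were lower in v2 over v1, where 3.26% of all genes were lower. In v3 over v1, 0 were past 1.5-fold, beside 16.2% of all genes, and 2 were higher in v3 over v2, beside 11.9%. Kcnj3, which encodes another subunit of neuronal G protein-gated potassium channels, held 113, 102 and 102 peaks. Its ratios were 0.661 in v2 over v1 (0.50 to 0.871) and 1.66 in v3 over v2 (1.25 to 2.21). Grasp, the gene of the receptor scaffold tamalin, held 13, 10 and 8 peaks (v2 over v1 0.563, 0.221 to 1.39), and Gnai2, a Gi alpha subunit gene, 12, 11 and 14 (v3 over v2 2.12, 0.892 to 5.15). The median log2 share ratio was -0.29, -0.01 and 0.30. Of Kcnj3, Grasp and Gnai2, Kcnj3 alone had intervals that left out equal shares.

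The partners of Grm6 in ON bipolar cells had medians of 37.2, 50.4 and 32.2 peaks per 100 kb, beside 7.74, 31.0 and 11.6 at Grm6. The interval of Grm6 lay below the median of the list in v1 (0.937 to 28.0). In v2 (13.4 to 61.0) and v3 (2.39 to 33.9) it included that median. Rgs7, a regulator of G protein signalling also used in brain neurons, held 233, 272 and 221 peaks, and Trpm1, the cation channel gated by this cascade, 27, 46 and 30. None of the 5 genes of this list with at least 30 peaks was past 1.5-fold in any pair. Of all genes, 10.1% were past it in v2 over v1, 16.2% in v3 over v1 and 18.1% in v3 over v2. A peak lay at most 1 kb from an end in 6 of the 7 genes of the list in each library, beside 81.0%, 84.8% and 80.6% of all protein-coding genes.

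Subunits of the ionotropic glutamate receptors, the ligand-gated channels of fast transmission, were set beside the mGlu receptors. The median density of 7 NMDA receptor genes was 55.2, 56.9 and 35.7 peaks per 100 kb, and that of 9 AMPA and kainate receptor genes 54.1, 62.5 and 49.2. Grm3, Grm5 and Grm7, at 48.7 to 61.6 peaks per 100 kb in v1 and v2, were close to both. In v3, Grm5 and Grm7 at 49.9 and 50.1 were nearer to the median of the AMPA and kainate list, and Grm3 at 43.2 lay between the medians. Within the NMDA list, Grin2a and Grin2b stood at 50.4 and 53.8 in v3, as high as Grm5 and Grm7. The other NMDA receptor genes ran from 28.4 to 36.5.

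Among NMDA receptor genes, Grin2b held 292, 319 and 253 peaks with a v3 over v2 ratio of 1.32 (1.11 to 1.56), and Grin2a held 257, 287 and 221 with 1.28 (1.07 to 1.53). Of the 6 genes of that list with 30 peaks or more, 1 was lower in v2 over v1, beside 3.26% of all genes, and 1 in v3 over v1, beside 4.94%. Grin1, the obligatory subunit, had 21, 19 and 12 peaks and 0.662 in v2 over v1 (0.337 to 1.29), and Grin2c had 16, 16 and 8 and 0.608 in v3 over v1 (0.225 to 1.51). Both intervals hold equal shares.

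Of the 9 AMPA and kainate receptor genes, 1 was higher and 1 lower in v3 over v1, beside 11.3% and 4.94% of all genes, and 1 was lower in v3 over v2, beside 6.23%. Grik2 held 411, 416 and 361 peaks with 1.44 in v3 over v2 (1.25 to 1.66), and Gria4 219, 227 and 196 with 1.44 (1.18 to 1.74), values next to the 1.43 of Grm5. Gria3, an AMPA receptor gene on the X chromosome, held 124, 180 and 157 peaks and was higher in v3 over v1 at 1.54 (1.21 to 1.96). Grik1, a kainate receptor gene, held 137, 142 and 52 and was lower at 0.462 in v3 over v1 (0.329 to 0.640) and 0.609 in v3 over v2 (0.434 to 0.842), further below equal shares than Grm8.

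The genes most like each receptor gene were found by the distance between log2 peak shares over the 3 libraries, a measure on 3 points only. The size of the share enters this distance, so it favours genes with like numbers of peaks. It does not compare the pattern between libraries alone. Nearest to Grm5 were Lrrc7 at 0.070 and Rims1 at 0.070, with 311, 321 and 269 peaks and 321, 331 and 293. Ntm at 0.12 and Nlgn1 at 0.15 were nearest to Grm7, and Grip1 at 0.089 and Slit3 at 0.18 to Grm8. For Grm3 they were Phlpp1 at 0.028 and Tasp1 at 0.031, and for Grm4 Papss1 at 0.036 and Kcnab2 at 0.047. Fbxw2 and Lrrc41 had the same 13, 16 and 11 peaks as Grm2.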

How the data were processed

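The build mm10 and the tools ArchR and MACS2 are named per the submitters' processing notes. Tool versions, aligner, filters and calling threshold were not given in the sources used here. For each library the authors deposited a single list of peaks, each with a chromosome, start and end and no score. No peak was shorter than 500 bp and none overlapped another of its list. Sequencing depth is unknown.

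Peaks overlapping a gene span plus 5 kb by at least 1 bp were counted with Python 3.11.15, numpy 2.4.6, pandas 2.3.3 and scipy 1.17.1, for 21631 protein-coding genes of the RefSeq table of GRCm38.p6. Lists were merged where peaks overlapped. For medians and percentiles of log2 share ratios, 0.5 peaks, scaled by library size, were added to each count, and coordinates are 1-based. Counting and merging were tested on simulated peaks. No test between versions was possible with 1 library each. The members and lists were chosen with earlier results of these data known, and 1 gene of the Gq list is not reported here and was left out of its counts and medians. The genes named were the 7 receptor genes, from each partner or subunit list the 2 with most peaks and those past 1.5-fold (cell type markers are given as counts), the 2 genes nearest each receptor gene, and the 2 widest shared regions. Alternatives were the gene span alone, flanks of 20 kb, peaks wider than 500 bp, equal numbers of peaks, covered length, 50% coverage of merged regions and a 500 bp limit at gene ends; leaving out Grm7 or Grm8 was chosen after seeing the data.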

Additional observations from a re-analysis of the deposited data

How the results depend on the processing

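The number of receptor genes past 1.5-fold changed from 0 to 1 in 3 cases. With flanks of 20 kb Grm6 reached 30 peaks, at share ratios of 2.07 in v2 over v1 and 1.62 in v3 over v1, and among peaks wider than 500 bp Grm4 stood at 0.653 in v2 over v1. The pooled ratio was 0.965 in v3 over v1 and 1.11 in v3 over v2 without Grm7, and 1.32 in v3 over v2 without Grm8. Among peaks wider than 500 bp the 7 windows held 19.2 peaks per 100 kb in v1, 28.3 in v2 and 24.3 in v3, against 46.4, 56.5 and 40.7, since fewer peaks remain. The percent of merged regions in all 3 libraries, 51.2% over the 7 genes, was 38.1% with 50% of the region covered in each library, 38.8% among wider peaks and 33.3% with equal numbers of peaks. For single genes, the Grm7 ratio among wider peaks was 1.06 in v2 over v1 and 1.19 in v3 over v2, and the Grm6 ratio in v3 over v1 reversed to 0.846, on few peaks. The cause was not tested. The v3 over v2 ratio of Grm5 ranged from 1.41 to 1.47, of Grm7 from 1.19 to 1.37 and of Grm8 from 0.785 to 0.898 over the settings tried on single genes. No paired analysis was possible because each version has 1 library. Without replicates and depth, a difference between versions cannot be told apart from a difference between single libraries.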

Other observations

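Other annotated genes lay in some of the receptor windows. Gm20387, a long noncoding RNA gene, overlaps the lower end of the Grm7 span and ends before the annotated starts, and the peak over those starts was the 1 peak of the Grm7 window in its span in each library. Inside Grm8, the noncoding gene Gm52896 overlapped 12, 11 and 9 of the peaks of v1, v2 and v3. The hairpin of the microRNA gene Mir592, also inside Grm8, lay under 1 peak in v2 and none in v1 and v3, where the nearest peaks were 387 and 395 bp away. In the flanks, 6, 6 and 3 of the peaks counted for Grm3 overlapped Elapor2. Of the 13, 16 and 11 peaks counted for Grm2, 2, 4 and 3 overlapped the noncoding gene Gm28111 and 1, 1 and 0 the gene Tex264.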
